A study of Mus musculus with 4 samples.

Results

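This account follows 10 genes of the lung epithelium through RNA sequencing of CD8+ T cells, a sort in which such transcripts are a minor presence. The genes are Sftpc, Sftpb, Sftpa1, Sftpd, Scgb1a1, Ager, Epcam, Krt8, Krt18 and Nkx2-1, taken by symbol, and all 10 were found once each among the 55401 genes of every table. The cells were sorted as CD3+CD8+ from the lungs of C57BL/6J mice of 2 models called IPF-LC and LC, names the labels leave unexplained; the series concerns tumour responses to CD4 depletion in fibrotic lung. Mice of each model had received an antibody that depletes CD4+ cells, or an isotype antibody. The 4 groups, with 1 library each, were CD4-depleted IPF-LC, isotype IPF-LC, CD4-depleted LC and isotype LC. The age and number of the mice behind a library, and whether animals were pooled, are not given in the sources used here. With no replicate, no difference between a pair of libraries could be set against the spread between animals, so sizes are given with 95% counting intervals and no p-value. These intervals cover counting error only, since the reads carried no molecular identifiers and amplified reads are not independent molecules.

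The gas-exchange surface of the lung is lined by flat alveolar type 1 cells, marked by Ager, and by cuboidal alveolar type 2 cells, which make surfactant and so keep the air spaces open. The conducting airways are lined by ciliated and secretory cells, and the club cell among the secretory ones releases Scgb1a1 in large amounts. Nkx2-1 is the transcription factor that sets lung epithelial identity and drives the surfactant genes and Scgb1a1, while Epcam, Krt8 and Krt18 are shared by epithelia of many organs. None of the 10 is a gene by which T cells are known.

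The libraries held between 14946569 and 16217672 counts, over 14673 to 16455 detected genes. Cd8a stood at 353 CPM (counts after TMM scaling to a common library total) in CD4-depleted IPF-LC, 518 in isotype IPF-LC, 452 in CD4-depleted LC and 476 in isotype LC. Of 16 genes that identify CD8 T cells, 0 were 2-fold apart between CD4-depleted and isotype antibody in either model. Cd4, which the depleting antibody targets, had 0 counts in CD4-depleted IPF-LC and 73 in isotype IPF-LC, and 16 counts in CD4-depleted LC and 12 in isotype LC.

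The lung epithelial genes were scarce in every library and scarcest after CD4 depletion. Their summed level was 7.89 CPM in CD4-depleted IPF-LC against 44.4 CPM in isotype IPF-LC, which is 5.63-fold lower at a log2 ratio of -2.49 (95% counting interval -2.78 to -2.21). In LC it was 13.7 CPM in the CD4-depleted library against 65.4 CPM in the isotype library, 4.79-fold lower at a log2 ratio of -2.26 (-2.48 to -2.05). Behind these sums stood 123 counts in CD4-depleted and 694 in isotype IPF-LC, and 214 in CD4-depleted and 1010 in isotype LC. The depletion ratios of the models differed by -0.23 (IPF-LC minus LC, on the log2 scale), with a counting interval of -0.58 to 0.12 that spans 0. The size of this difference depended on the members summed. Epcam held most of the counts left after depletion in IPF-LC and had no gap of the size of the sum. Without Epcam the sum was 11.6-fold lower in CD4-depleted than in isotype IPF-LC (log2 ratio -3.54, -3.96 to -3.14) and 7.21-fold lower in CD4-depleted than in isotype LC (-2.85, -3.13 to -2.58). The ratios then differed by -0.69 (-1.17 to -0.21), an interval of counting error that leaves out 0. Leaving out Epcam was chosen after seeing the data. The planned sum without Scgb1a1, the most abundant member, gave a difference of 0.03 (-0.38 to 0.43). In a bulk sample, fewer epithelial cells and less RNA per epithelial cell cannot be told apart.

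Counted gene by gene, 5 of the 10 members were 2-fold or more lower in CD4-depleted than in isotype IPF-LC, 1 was 2-fold or more higher, 1 differed by less and 3 had too few counts in both libraries for a ratio. Among all 12231 genes that averaged 1 CPM or more, 13.5% were 2-fold or more lower in that comparison and 8.8% 2-fold or more higher. In LC, 8 members were 2-fold or more lower in the CD4-depleted library and 0 were higher by that much. Of the other members, 1 differed by less and 1 had no ratio. Of the 12231 genes, 15.4% were 2-fold or more lower in LC and 5.83% 2-fold or more higher. These shares are not like for like with all 10 members, since 5 members averaged under 1 CPM. Among the 5 members that averaged 1 CPM or more, 4 were 2-fold or more lower in IPF-LC and 4 in LC. The median log2 ratio of members with a ratio was -2.82 in IPF-LC and -3.41 in LC, or -2.05 and -2.34 with undetected members set at a floor of 3 counts per library. Over the 12231 genes the median was -0.02 in IPF-LC and 0.01 in LC.

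**Figure D1:**
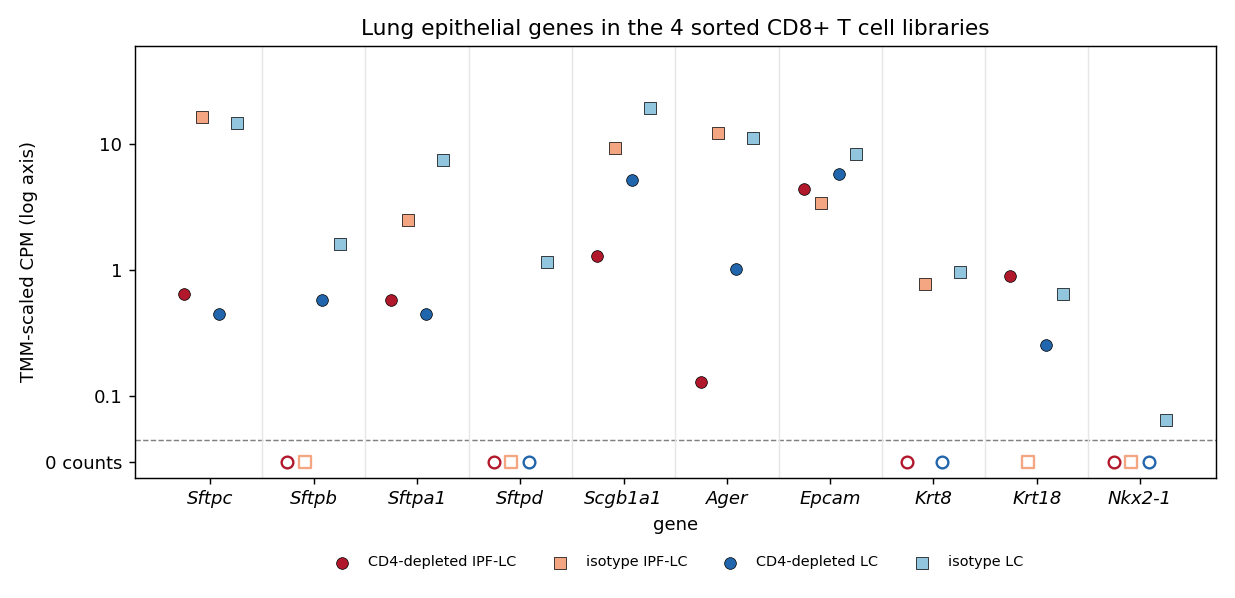
Level of each of the 10 lung epithelial genes in TMM-scaled CPM (log axis) in the 4 libraries; circles are CD4-depleted and squares isotype libraries, and open symbols under the dashed line mark 0 counts. Sftpc, Scgb1a1 and Ager lie lower in both CD4-depleted libraries than in both isotype libraries, Epcam does not, and Nkx2-1 shows 1 count in all.

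Summed, the 4 surfactant protein genes were far lower in both CD4-depleted libraries. Together they held 1.22 CPM in CD4-depleted IPF-LC against 18.7 CPM in isotype IPF-LC, 15.4-fold lower, and 1.47 CPM in CD4-depleted LC against 24.8 CPM in isotype LC, 16.9-fold lower. Most isotype counts of this sum were from Sftpc, with 254 of 293 in IPF-LC and 225 of 384 in LC. Sftpc encodes a hydrophobic surfactant protein of type 2 cells and is the marker by which these cells are most often recognised. It had 10 counts (0.642 CPM) in CD4-depleted IPF-LC against 254 counts (16.3 CPM) in isotype IPF-LC, and 7 counts (0.447 CPM) in CD4-depleted LC against 225 counts (14.6 CPM) in isotype LC. Both CD4-depleted libraries were thus far under both isotype libraries, with log2 ratios of -4.66 (-5.74 to -3.76) in IPF-LC and -5.03 (-6.36 to -3.96) in LC. The difference between these ratios, 0.36 (-1.05 to 1.78), was not detectable at this depth.

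Sftpa1, a collectin that binds microbes and surfactant lipid, had 9 counts in CD4-depleted IPF-LC, 39 in isotype IPF-LC, 7 in CD4-depleted LC and 116 in isotype LC. The CD4-depleted libraries were close to each other, and the isotype libraries were 3.01-fold apart with IPF-LC the lower (log2 ratio -1.59, -2.15 to -1.05). Its depletion ratio was therefore larger in size in LC, at -4.07 (-5.42 to -2.98), than in IPF-LC, at -2.11 (-3.34 to -1.04), a difference of 1.96 (0.44 to 3.48). Sftpb, needed for the surfactant film to spread, was at 0 counts in both IPF-LC libraries, which allows up to 0.192 CPM in each, and had 9 counts in CD4-depleted LC against 25 in isotype LC (log2 ratio -1.49, -2.78 to -0.35). Sftpd, the other lung collectin, had 18 counts in isotype LC and 0 in the other 3 libraries. It was at least 6.09-fold lower in CD4-depleted than in isotype LC by the floor of 3 counts.

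Promoter sequence was matched for 7 of the 10 genes in the RefSeq table (GRCm38.p6, an older build than the GRCm39 of the counts, so its positions are not those of the count tables). Shown are the 250 bases before the start of the surfactant genes Sftpb and Sftpa1, of Ager and of Epcam. After depletion, Sftpa1 and Ager were lower in both models and Epcam was within 2-fold in both. Sftpb was lower in LC and had no ratio in IPF-LC. All are on the plus strand, 5′ to 3′, at chr6:72304360-72304609 (Sftpb), chr14:41131538-41131787 (Sftpa1), chr17:34597600-34597849 (Ager) and chr17:87635729-87635978 (Epcam). Capitals mark CTCAAG or its reverse complement CTTGAG, a form of the core that NKX2-1 binds.
Sftpb: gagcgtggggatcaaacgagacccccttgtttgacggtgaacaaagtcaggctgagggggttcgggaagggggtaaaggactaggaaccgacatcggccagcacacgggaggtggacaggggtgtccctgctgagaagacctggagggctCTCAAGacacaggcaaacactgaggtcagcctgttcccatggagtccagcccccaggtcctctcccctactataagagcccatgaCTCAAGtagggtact
Sftpa1: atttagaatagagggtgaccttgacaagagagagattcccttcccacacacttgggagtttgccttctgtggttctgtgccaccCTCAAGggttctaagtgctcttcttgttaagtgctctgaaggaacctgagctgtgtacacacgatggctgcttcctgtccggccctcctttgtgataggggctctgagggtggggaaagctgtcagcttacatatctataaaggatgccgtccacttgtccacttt
Ager: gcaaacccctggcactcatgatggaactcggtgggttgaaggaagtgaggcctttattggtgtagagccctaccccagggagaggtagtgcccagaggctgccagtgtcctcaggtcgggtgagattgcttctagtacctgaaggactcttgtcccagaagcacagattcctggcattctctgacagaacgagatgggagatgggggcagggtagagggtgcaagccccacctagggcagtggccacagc
Epcam: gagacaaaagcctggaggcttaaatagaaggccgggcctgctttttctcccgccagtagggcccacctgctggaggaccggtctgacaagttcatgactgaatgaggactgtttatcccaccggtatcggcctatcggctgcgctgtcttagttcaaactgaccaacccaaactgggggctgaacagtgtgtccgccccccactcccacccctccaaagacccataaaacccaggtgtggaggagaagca
CTCAAG on either strand occurred 2 times in the Sftpb window and 1 time in that of Sftpa1, and in none of the other 5 matched windows (Ager, Epcam, Krt8, Krt18 and Nkx2-1). Of the 32851 windows of this length in the table, 13.3% held it. The shorter core CAAG, which CTCAAG contains, was in 86.6% of windows and so says little of any of them. A match is a run of letters and not a measured site, and no match says only that these letters are not in the window.

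Scgb1a1, the secretoglobin of club cells, had the highest mean count of the 10 members. It had 20 counts (9.0 TPM, a share of transcripts corrected for length) in CD4-depleted IPF-LC against 145 counts (66.8 TPM) in isotype IPF-LC, and 81 counts (36.9 TPM) in CD4-depleted LC against 299 counts (146 TPM) in isotype LC. On the length-corrected TPM scale it was the highest of the 10 in each library, and in isotype LC it stood above 93.0% of the detected genes. Both isotype libraries were above both CD4-depleted libraries, with log2 ratios of CPM of -2.85 (-3.61 to -2.17) in IPF-LC and -1.90 (-2.28 to -1.55) in LC. The depletion ratios differed by -0.95 (-1.71 to -0.19). With antibody held the same, Scgb1a1 CPM was lower in IPF-LC than in LC: 4.03-fold with CD4 depletion (-2.01, -2.79 to -1.29) and 2.09-fold with isotype antibody (-1.06, -1.36 to -0.77).

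Ager, which encodes the receptor RAGE of type 1 cells, had the lowest depletion ratio in IPF-LC of the members detected in all 4 libraries. There were 2 counts in CD4-depleted IPF-LC against 191 in isotype IPF-LC, and 16 counts in CD4-depleted LC against 173 in isotype LC. The isotype libraries were alike at 12.2 CPM in IPF-LC and 11.2 CPM in LC (log2 ratio 0.13, -0.18 to 0.43), so the models differed in their CD4-depleted libraries, at 0.128 CPM in IPF-LC and 1.02 CPM in LC. The log2 depletion ratio was -6.57 in IPF-LC, with an interval of -9.63 to -4.70 that is wide because of the 2 counts, and -3.46 (-4.29 to -2.71) in LC. The ratios differed by -3.12 (-5.26 to -0.98).

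**Figure D2:**
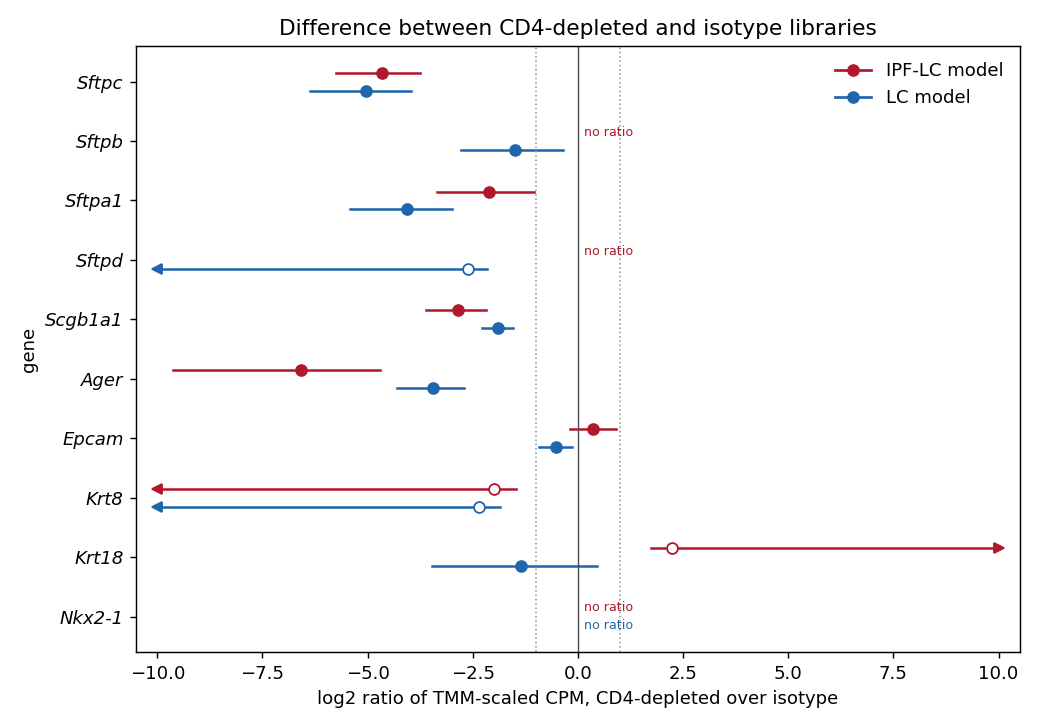
Log2 ratio of CPM, CD4-depleted over isotype, for each gene in the IPF-LC (upper) and LC (lower) pair of libraries; bars are 95% counting intervals, dotted lines mark 2-fold, open circles are bounds against a floor of 3 counts and arrows open-ended intervals. Sftpc, Sftpa1, Scgb1a1 and Ager lie left of the 2-fold line in both models, Epcam lies within it, and Krt18 lies on opposite sides.

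Epcam, the adhesion molecule used to recognise epithelial cells, did not share the pattern of the alveolar and club cell genes. It had 68 counts (4.36 CPM) in CD4-depleted IPF-LC against 53 (3.39 CPM) in isotype IPF-LC, and 90 counts (5.74 CPM) in CD4-depleted LC against 128 (8.28 CPM) in isotype LC. The CD4-depleted libraries lay between the isotype libraries, and neither pair was 2-fold apart. The log2 ratio was 0.36 (-0.18 to 0.91) in IPF-LC, where no difference was detectable at this depth, and -0.53 (-0.93 to -0.13) in LC. With isotype antibody Epcam was 2.44-fold lower in IPF-LC than in LC (-1.29, -1.78 to -0.82).

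The keratins Krt8 and Krt18 pair with each other to build the filaments of simple epithelia, and here were close to the limit of detection. Krt8 had 0 counts in CD4-depleted IPF-LC and 12 in isotype IPF-LC, and 0 counts in CD4-depleted LC and 15 in isotype LC, so it was lower after depletion by at least 3.99-fold in IPF-LC and at least 5.07-fold in LC. Krt18 went another way in IPF-LC, with 14 counts in the CD4-depleted library and 0 in the isotype library, at least 4.68-fold higher, while LC had 4 counts in the CD4-depleted and 10 in the isotype library (log2 ratio -1.34, -3.47 to 0.45). Krt8 was thus detected in the isotype libraries alone, and no library but isotype LC held both partners. Zeros of this kind were common: of the 4249 genes with 10 to 99 counts over the 4 libraries, 66.6% were at 0 in at least 1 library, and so were all 4 members in that range (Sftpb, Sftpd, Krt8 and Krt18). Of the 4082 genes with 100 to 999 counts, 12.6% were, and of the 5 members in that range (Sftpc, Sftpa1, Scgb1a1, Ager and Epcam) 0 were. In the older annotation the gene model Gm36026 overlaps Krt8 on the opposite strand, and it had 0 counts in each library.

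Nkx2-1 was in effect not detected, with 1 count in isotype LC and 0 in the other 3 libraries, and no ratio is given for it. The older annotation places Gm26973 over it on the opposite strand, with 0 counts in each library.

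The make-up of the epithelial counts differed along with their amount. Epcam made up 55.3% of the 10-gene counts in CD4-depleted IPF-LC (exact 95% interval 46.1 to 64.3) against 7.64% (5.77 to 9.87) in isotype IPF-LC, and 42.1% (35.4 to 49.0) in CD4-depleted LC against 12.7% (10.7 to 14.9) in isotype LC. Sftpc made up 8.13% (3.97 to 14.4) in CD4-depleted IPF-LC against 36.6% (33.0 to 40.3) in isotype IPF-LC, and 3.27% (1.33 to 6.62) in CD4-depleted LC against 22.3% (19.7 to 25.0) in isotype LC. Scgb1a1 also weighed more against Sftpc after depletion. There were 2.00 Scgb1a1 counts for each Sftpc count in CD4-depleted IPF-LC (0.894 to 4.78) against 0.571 (0.462 to 0.703) in isotype IPF-LC, and 11.6 (5.37 to 29.7) in CD4-depleted LC against 1.33 (1.11 to 1.59) in isotype LC. The intervals of the CD4-depleted and isotype libraries did not overlap in either model. This was seen for that pair of genes and is not a statement on club against type 2 cell genes at large. The sum of 11 other club and goblet cell genes had a log2 depletion ratio of -6.67 in IPF-LC (-8.55 to -5.30) and -3.95 in LC (-4.78 to -3.22). For the surfactant sum the ratios were -3.94 in IPF-LC (-4.70 to -3.27) and -4.08 in LC (-4.76 to -3.48). The club and goblet sum was thus further down in IPF-LC, while the intervals in LC overlapped. The sum of 11 other type 2 cell genes had ratios of -0.09 in IPF-LC and -0.45 in LC. The alveolar pair did not move one way: there were 0.20 Ager counts for each Sftpc count in CD4-depleted IPF-LC (0.0213 to 0.939) against 0.752 (0.620 to 0.911) in isotype IPF-LC, and 2.29 (0.890 to 6.57) in CD4-depleted LC against 0.769 (0.627 to 0.942) in isotype LC.

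**Figure D3:**
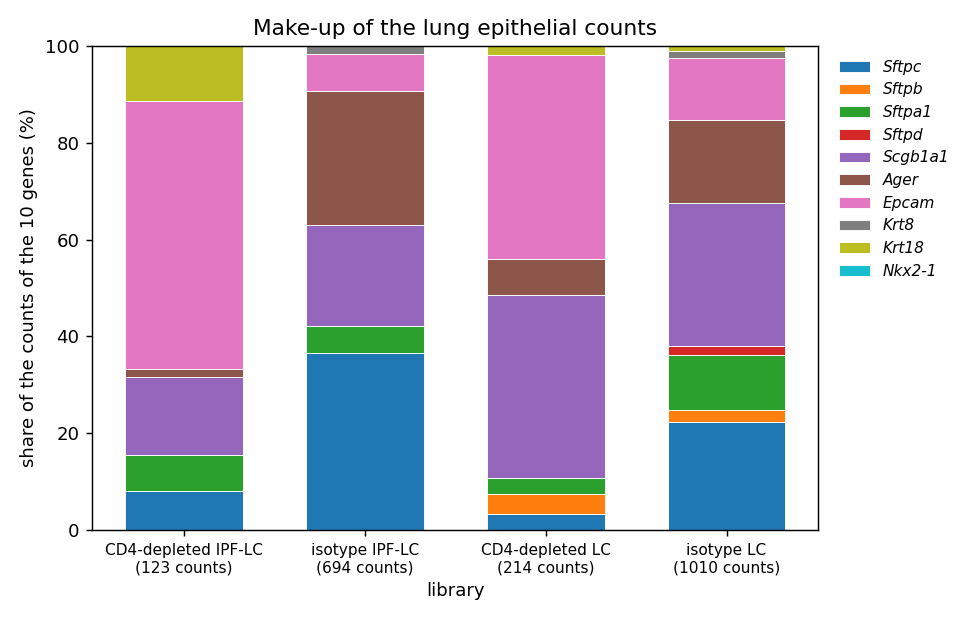
Share of each gene in the counts of the 10 lung epithelial genes, by library, in percent, with the total under each bar. Epcam takes the greatest share in both CD4-depleted libraries, at 55.3% and 42.1%, and Sftpc or Scgb1a1 does in the isotype libraries.

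Wider lists of epithelial genes, 70 genes beside the members, gave the setting. Of 11 other type 1 cell genes, 7 were 2-fold or more lower in the CD4-depleted library in IPF-LC and 7 in LC, and 0 were higher by that much in either. Emp2, a membrane protein of type 1 cells, had 22 counts in CD4-depleted IPF-LC against 414 in isotype IPF-LC (18.8-fold lower), and 0 counts in CD4-depleted LC against 449 in isotype LC (at least 152-fold lower). Pdpn, the podoplanin of type 1 cells, had 66 counts against 122 in IPF-LC and 0 against 45 in LC, CD4-depleted against isotype. Hopx and Gprc5a were not lower by that much. Hopx, also made by effector T cells, was at 70.4 CPM in CD4-depleted and 71.6 in isotype IPF-LC, and at 80.8 in CD4-depleted and 95.3 in isotype LC. Gprc5a was higher in the CD4-depleted library, 1.67-fold in IPF-LC (log2 ratio 0.74, 0.42 to 1.06) and 1.51-fold in LC (0.59, 0.25 to 0.94).

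Among 11 other type 2 cell genes, 2 were 2-fold or more lower, 1 2-fold or more higher and 5 without a ratio in IPF-LC, and 7 were lower, 0 higher and 2 without a ratio in LC. Napsa, an aspartic protease that processes surfactant proteins, had 19 counts in CD4-depleted IPF-LC and 79 in isotype IPF-LC (4.15-fold lower), and 29 counts in CD4-depleted LC and 637 in isotype LC (22.3-fold lower). Abca3 and Lpcat1, a lipid transporter and an acyltransferase of surfactant lipid, were within 2-fold in both models, at 43.9 CPM and 30.4 CPM even in CD4-depleted IPF-LC, where Sftpc had 0.642 CPM. Muc1, a membrane mucin, was 2.45-fold higher in CD4-depleted than in isotype IPF-LC and 3.72-fold lower in CD4-depleted than in isotype LC by CPM. In TPM it had 9.86 in CD4-depleted and 1.17 in isotype IPF-LC, and 2.31 in CD4-depleted and 2.38 in isotype LC. Its gap in LC thus depended on the scale.

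Airway secretory genes other than Scgb1a1 were nearly absent after depletion. Of these 11 club and goblet cell genes, 9 were 2-fold or more lower in CD4-depleted than in isotype IPF-LC and 2 had no ratio, while 3 were lower in CD4-depleted LC and 8 had no ratio. Their sum was 4 counts in CD4-depleted IPF-LC against 409 in isotype IPF-LC, and 16 counts in CD4-depleted LC against 244 in isotype LC. Cyp2f2, a cytochrome of club cells, had 0 counts in CD4-depleted and 61 in isotype IPF-LC, and 16 in CD4-depleted and 109 in isotype LC. Cbr2, a carbonyl reductase, had 0 counts in CD4-depleted and 31 in isotype IPF-LC, and 0 in CD4-depleted and 54 in isotype LC.

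The airway list split between the isotype libraries. Of its 11 genes other than Scgb1a1, 6 were 2-fold or more higher in isotype IPF-LC than in isotype LC, 1 was lower by that much, 2 were within 2-fold and 2 had no ratio. Bpifa1, a secreted defence protein of the upper and large airways, had 143 counts in isotype IPF-LC and 0 in the other 3 libraries, at least 47.1-fold above isotype LC. Scgb3a2, another secretoglobin, had 1 count in CD4-depleted IPF-LC, 36 in isotype IPF-LC and 0 in both LC libraries. The mucin gene Muc5b (29 counts), the antimicrobial lectin gene Reg3g (49) and Bpifb1 (12), named here after their values were seen, were likewise at 0 outside isotype IPF-LC. Cyp2f2, Cbr2 and Aldh1a1 (38 counts in isotype IPF-LC and 81 in isotype LC), like Scgb1a1, were lower in isotype IPF-LC than in isotype LC, by 1.81-fold, 1.76-fold and 2.16-fold. Over all 70 epithelial genes beside the members, 6 had more than 3 counts in isotype IPF-LC and 0 in the other 3 libraries, and 9 had them in isotype LC alone. Over all genes, 340 of the 13973 with more than 3 counts in isotype IPF-LC (2.43%) had this pattern, and 758 of the 14813 in isotype LC (5.12%). The bases differ, since the 70 epithelial genes were not cut at 3 counts and 17 of them were at 0 in every library.

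**Figure D4:**
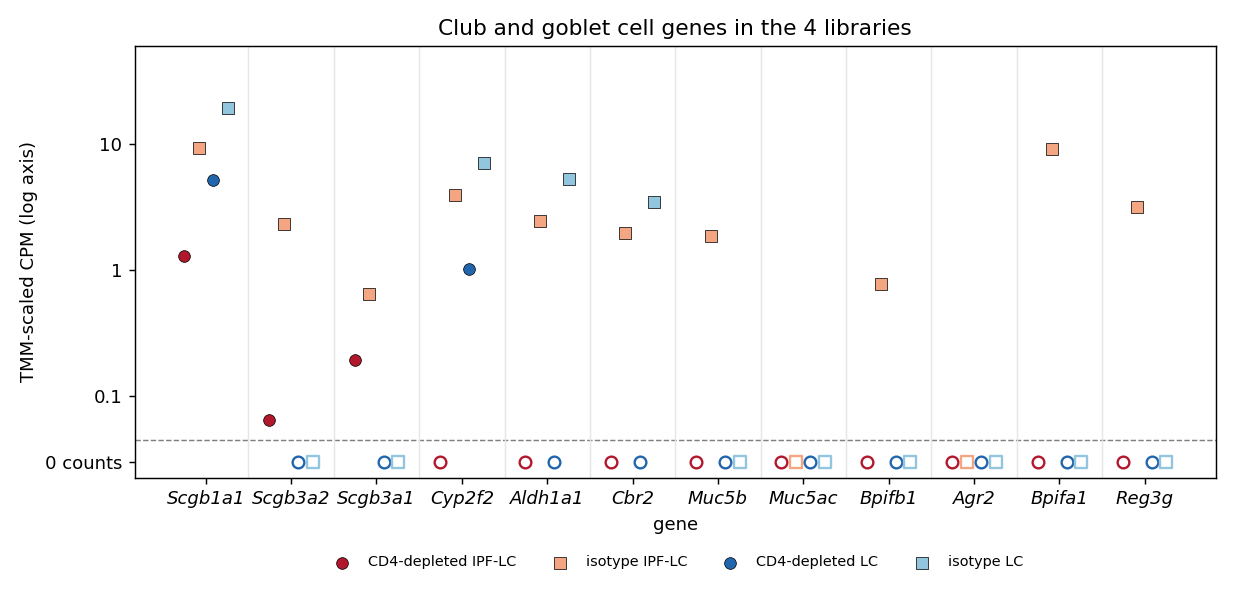
Level of Scgb1a1 and 11 other club and goblet cell genes in TMM-scaled CPM (log axis) in the 4 libraries; open symbols under the dashed line mark 0 counts. Bpifa1, Bpifb1, Muc5b and Reg3g have counts in isotype IPF-LC alone, and Cyp2f2, Aldh1a1 and Cbr2 in both isotype libraries.

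Ciliated and basal cell genes added little. Of 10 ciliated cell genes, 2 were 2-fold or more lower and 2 2-fold or more higher in the CD4-depleted library in IPF-LC, and likewise 2 and 2 in LC. Sec14l3 had 0 counts in both CD4-depleted libraries, against 28 in isotype IPF-LC and 102 in isotype LC, whereas Cyp2s1, a cytochrome also found outside ciliated cells, had 143 counts in CD4-depleted IPF-LC against 5 in isotype IPF-LC and 94 in CD4-depleted LC against 16 in isotype LC. Foxj1, the regulator that defines ciliated cells, named after its values were seen, had 5 counts in CD4-depleted IPF-LC, 0 in isotype IPF-LC, 1 in CD4-depleted LC and 0 in isotype LC. By the floor of 3 counts Foxj1 was at least 1.67-fold higher in CD4-depleted IPF-LC, short of 2-fold. Ccdc153, also named afterwards and counted as lower there (0 against 4 counts), was at least 1.33-fold lower by that floor. Of 5 basal cell genes, Krt17 alone was counted, with 13 counts in isotype LC.

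Adhesion, junction and keratin genes other than the members split by model. Of 12, 3 were 2-fold or more lower and 3 2-fold or more higher in CD4-depleted than in isotype IPF-LC, against 8 lower and 0 higher in LC. Cdh1, which encodes E-cadherin, had 274 counts in CD4-depleted against 149 in isotype IPF-LC, and 40 in CD4-depleted against 343 in isotype LC. Krt19, a keratin of simple epithelia, had 15 counts in CD4-depleted against 72 in isotype IPF-LC, and 0 in CD4-depleted against 184 in isotype LC. Ocln, the tight-junction protein occludin, had 34 counts in CD4-depleted against 0 in isotype IPF-LC, and 18 in CD4-depleted against 90 in isotype LC. Of 14 transcription factors of lung epithelium beside Nkx2-1, 1 was lower and 4 higher in CD4-depleted than in isotype IPF-LC, and 6 lower and 0 higher in LC, with 7 lacking a ratio in each model. The 4 higher, named after their values were seen, had few counts in CD4-depleted against isotype IPF-LC. They were Foxj1 (5 against 0), Foxa1 (6 against 0), Gata6 (15 against 0) and Grhl2 (15 against 3, also in the adhesion list). The Foxj1 call rests on the prior count, since by the floor of 3 counts it was at least 1.67-fold higher. The mesothelial list, kept because that lining also makes Krt8 and Krt18, held 1 to 3 detected genes of 6 and 10 to 43 counts per library.

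With antibody held the same, the summed epithelial level differed less between the models than it did between the antibodies. With isotype antibody, 6 of the 10 members were 2-fold or more lower in IPF-LC than in LC, 0 were higher by that much and 3 differed by less. Of all genes that averaged 1 CPM or more, 11.7% were 2-fold or more lower and 5.31% 2-fold or more higher. Of the 5 members above that mark, 3 were lower. The 6 were Sftpb, Sftpa1, Sftpd, Scgb1a1, Epcam and Krt18, while Sftpc (254 counts in IPF-LC, 225 in LC), Ager and Krt8 were within 2-fold. The summed level was 1.47-fold lower in isotype IPF-LC (log2 ratio -0.56, -0.70 to -0.42). After CD4 depletion, 3 members were 2-fold or more lower in IPF-LC (Sftpb, Scgb1a1 and Ager) and Krt18 was higher. Of all genes that averaged 1 CPM or more, 7.49% were 2-fold or more lower and 9.41% 2-fold or more higher. Of the 5 members above that mark, 2 were lower and 0 higher. The sum was then 1.73-fold lower in CD4-depleted IPF-LC than in CD4-depleted LC (-0.79, -1.12 to -0.46), and the size of that gap depended on the members summed. Without Scgb1a1 it was 1.28-fold (-0.36, -0.75 to 0.02), and without Epcam 2.24-fold (-1.16, -1.65 to -0.70). These comparisons share libraries with the depletion comparisons and are not independent of them.

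An additive model of antibody and mouse model, which takes their interaction as its only error with 1 residual degree of freedom, was the sole test across libraries. It called 0 of 13050 genes with depletion (0% lower and 0% higher) by edgeR's quasi-likelihood test at a Benjamini-Hochberg adjusted p under 0.05, and 430 higher and 788 lower genes had an unadjusted p under that mark. Among the 7 members that passed the filter on low counts, Sftpc had a log2 change of -4.82 with depletion (unadjusted p = 0.00100, edgeR adjusted p = 0.366), Ager one of -4.73 (unadjusted p = 0.00909, edgeR adjusted p = 0.435) and Scgb1a1 one of -2.36 (unadjusted p = 0.0120, edgeR adjusted p = 0.459). The other 4, among them Epcam at -0.09, had unadjusted p over 0.05. DESeq2 in the same design called 2.92% of genes lower and 0.766% higher, and among the members Sftpc (adjusted p = 6.07e-05) and Ager (adjusted p = 0.00225) as lower, while limma-voom called 0 genes. For IPF-LC against LC, edgeR called 0 genes, with 99 higher and 143 lower at an unadjusted p under 0.05. DESeq2 called 0.0383% of genes lower and 0% higher, and no member was called by edgeR, DESeq2 or limma-voom.

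Markers of other cells that a CD8 sort should lack moved with the epithelial genes. Of 12 endothelial markers, 11 were 2-fold or more lower in the CD4-depleted library in each model, with summed levels of 185 CPM in CD4-depleted and 371 in isotype IPF-LC, and 172 in CD4-depleted and 466 in isotype LC. Of 12 fibroblast markers 11 were lower in each model, with 94.8 CPM in CD4-depleted and 337 in isotype IPF-LC, and 68.8 in CD4-depleted and 805 in isotype LC; Dcn was at 0 in both CD4-depleted libraries. Of 20 macrophage and monocyte markers, 18 were lower in IPF-LC and 19 in LC, with 1270 CPM in CD4-depleted and 3683 in isotype IPF-LC, and 311 in CD4-depleted and 5150 in isotype LC. Of these 20, 3 were at 0 in CD4-depleted and 1 in isotype IPF-LC, and 7 in CD4-depleted and 0 in isotype LC. Pecam1, the endothelial marker that was within 2-fold, had 137 CPM in CD4-depleted and 134 in isotype IPF-LC, and 129 in CD4-depleted and 145 in isotype LC. Pecam1 thus made up most of the endothelial sum in both CD4-depleted libraries, and that sum understates how much lower the other 11 were. Neutrophil markers summed to 25.7 CPM in CD4-depleted and 107 in isotype IPF-LC, and to 6.44 in CD4-depleted and 199.7 in isotype LC, with 5 of 10 in IPF-LC and 8 of 10 in LC lower by 2-fold or more. Il1b held 21.1 CPM of the neutrophil sum in CD4-depleted IPF-LC and 98.9 in isotype IPF-LC. B cell and plasma cell markers, with 5 of 10 lower in IPF-LC and 6 of 10 in LC, summed to 302 CPM in CD4-depleted and 485 in isotype IPF-LC, and to 343 in CD4-depleted and 391 in isotype LC. Ighm alone held 274 and 441 CPM of that sum in CD4-depleted and isotype IPF-LC, and 320 and 345 in CD4-depleted and isotype LC. The median log2 ratio of the B cell and plasma cell markers with a ratio was -1.14 in IPF-LC and -3.81 in LC. Erythroid genes had 52 counts in CD4-depleted and 240 in isotype IPF-LC, and 0 counts in CD4-depleted and 88 in isotype LC. The part of these cells in the epithelial result was not tested.

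The order of the models differed among these lists and with the antibody. With CD4 depletion the macrophage sum was lower in LC than in IPF-LC, by a log2 ratio of 2.03 (IPF-LC over LC, 1.99 to 2.08). The neutrophil (2.00), fibroblast (0.46) and endothelial (0.10) sums were also lower in LC, and so were the erythroid counts. The 10-member sum (-0.79) and the B cell sum (-0.18) were higher in LC. With isotype antibody, the macrophage (-0.48), endothelial (-0.33), fibroblast (-1.26) and neutrophil (-0.90) sums were lower in IPF-LC, as was the 10-member sum (-0.56). The B cell (0.31) and erythroid (1.43) sums were higher there. Among the 8433 genes that averaged 10 CPM or more, those nearest to the surfactant sum in profile over the 4 libraries, by the root mean square difference of centred log2 CPM, were Cavin1 (0.123), Slc9a3r2 (0.193), Cd93 (0.30), Sox7 (0.313) and Aqp1 (0.324). Cavin1 encodes a coat protein of caveolae, Cd93 a receptor of endothelial and myeloid cells, Sox7 an endothelial transcription factor and Aqp1 a water channel of endothelium and red cells. Cavin1, for example, stood at 1.09 CPM in CD4-depleted and 20.9 in isotype IPF-LC, and at 1.59 in CD4-depleted and 26.7 in isotype LC. Nearest to the sum of Krt8 and Krt18 were Sdc3 (0.0478), Cers6 (0.147), Klre1 (0.166), Cyp4v3 (0.195) and Gngt2 (0.213), a match to a profile that rests on 4 to 25 counts a library.

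**Figure D5:**
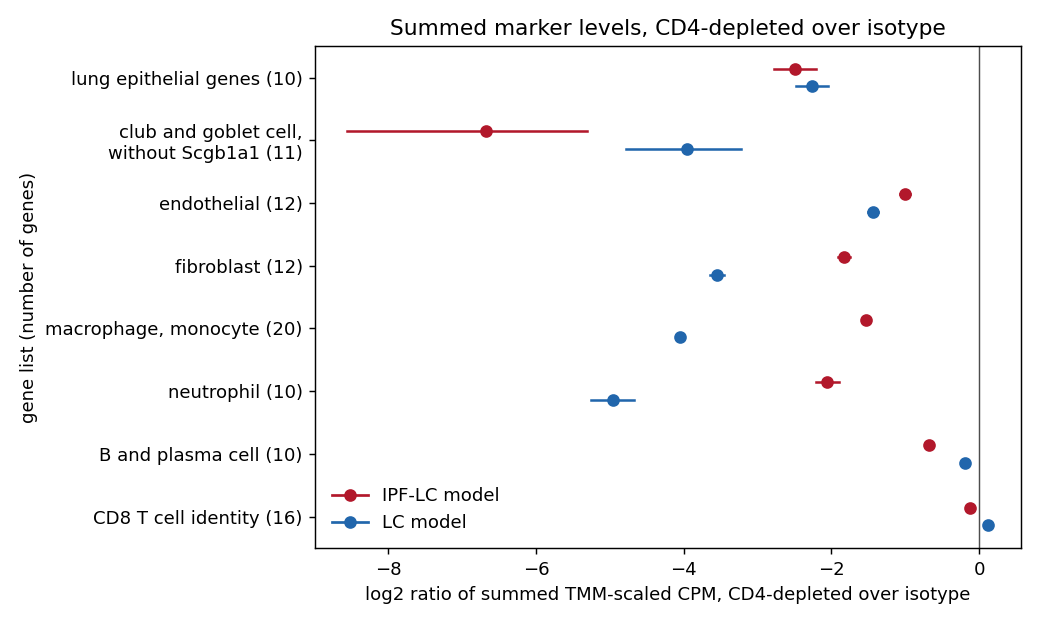
Log2 ratio of summed CPM, CD4-depleted over isotype, for the 10 lung epithelial genes and 7 marker lists in the IPF-LC (upper) and LC (lower) pair of libraries; bars are 95% counting intervals. The epithelial sums lie at -2.49 in IPF-LC and -2.26 in LC (-3.54 and -2.85 without Epcam, not drawn). Fibroblast, macrophage and neutrophil sums lie further left in LC than in IPF-LC, and CD8 T cell genes lie near 0. The B cell and plasma cell sum is mostly Ighm.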

How the data were processed

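Expected counts (estimated reads per gene) and TPM were deposited by the authors as 1 gene table per library, with the gene length and effective length in bases in other columns per the file headers. FPKM was not used. Tools listed in the submitters' processing notes, with no role given, are RSEM 1.3.3, MultiQC 1.25.2, STAR 2.7.11a and fastp 0.23.4, with the build GRCm39. Per the labels' protocols, low-input SMART-Seq cDNA went into NEBNext Ultra II libraries. The annotation release and any use of strand are not given in the sources used here.

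Expected counts were rounded and scaled by TMM factors (edgeR 4.0.16, R 4.3.3) to CPM. Ratios of detected genes and of sums are of CPM, with exact conditional binomial 95% intervals. Calls at 2-fold and medians used a prior count of 0.5, and genes with 3 or fewer counts in both libraries got no ratio. The fold mark stands in for a test, since each group has 1 library. The difference of depletion ratios has a Wald 95% interval from the counts. The additive model was fitted with edgeR on genes passing filterByExpr, two-sided, and with DESeq2 1.42.0 and limma 3.58.1 as alternatives. edgeR and the interval were tested on simulated data. Named genes are the members, up to 4 genes of a list with the highest mean TPM, and the 5 nearest in profile to each of 2 sums. Members and lists were chosen with earlier results of these data known. The list genes are not exclusive to one cell type and some stand in several lists. Promoters are the RefSeq windows of GRCm38.p6.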

Additional observations from a re-analysis of the deposited data

Results flagged for a closer look

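The additive model tests antibody and mouse model but takes their interaction as its error, so whether one effect differed with the other was not tested. The results here are those whose log2 ratio (prior count 0.5) had opposite signs. For CD4-depleted over isotype, Epcam had 0.36 in IPF-LC and -0.53 in LC, and Krt18 had 4.86 in IPF-LC and -1.24 in LC. For IPF-LC over LC, Sftpa1 had 0.35 with CD4 depletion and -1.58 with isotype antibody, Ager had -2.71 with CD4 depletion and 0.13 with isotype antibody, and Krt18 had 1.70 with CD4 depletion and -4.41 with isotype antibody. The counting interval spanned 0 for Epcam in IPF-LC (-0.18 to 0.91) and for Krt18 in LC (-3.47 to 0.45). It also did for Sftpa1 with CD4 depletion (-1.22 to 2.03) and for Ager with isotype antibody (-0.18 to 0.43). The signs of these values are thus not settled by the counts. For Krt18 in IPF-LC over LC both counting intervals left out 0, at 0.14 to 3.88 with CD4 depletion and -1.18 or lower with isotype antibody. The Krt18 values rest on 14, 0, 4 and 10 counts in CD4-depleted IPF-LC, isotype IPF-LC, CD4-depleted LC and isotype LC.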

How the results depend on the processing

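With DESeq2 size factors or plain totals, every summed ratio, count of members and difference of depletion ratios stayed within its counting interval or within 1.5 times its value. Deposited TPM, which weights short transcripts such as Scgb1a1, gave log2 ratios of the summed level of -3.00 for depletion in IPF-LC, -0.76 for IPF-LC over LC with isotype antibody and -1.47 with CD4 depletion, and a difference of depletion ratios of -0.71, outside the interval of the CPM value. Without Scgb1a1 the isotype ratio of IPF-LC over LC was -0.39 and the CD4-depleted one -0.36. Without Epcam, an alternative chosen after seeing the data, the depletion ratio was -3.54 in IPF-LC and -2.85 in LC, their difference was -0.69, and the CD4-depleted ratio of IPF-LC over LC was -1.16, each outside the interval of the 10-gene value; the isotype ratio was -0.48. Of the 10 members, 5 averaged 1 CPM or more. Among these 5, 4 were 2-fold or more lower with depletion in LC (8 among all 10), 3 were lower in isotype IPF-LC than in isotype LC (6 among all 10), and 0 were higher in CD4-depleted IPF-LC than in either isotype IPF-LC or CD4-depleted LC (1 each among all 10). With the whole counting interval beyond 2-fold, 1 member was lower and 0 were higher in CD4-depleted IPF-LC than in CD4-depleted LC, in place of 3 and 1. DESeq2 called 2 members with depletion where edgeR, limma-voom, edgeR with DESeq2 size factors and edgeR without a filter called 0. The edgeR fit on genes that averaged 10 CPM or more held 0 members and gave no value. No single gene's ratio reversed. No paired analysis was possible because each group has 1 library and the labels give no replicate numbers. Depth limits the 4 members with fewer than 100 counts in all, and Nkx2-1, for which a 0 allows up to 3 counts a library.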
